A study of Mus musculus with 15 samples.

Results

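The genes described here are 10 enzymes of NAD(P) metabolism, picked by name from the count table of 17447 genes: Nampt, Nmnat1, Nmnat3, Nmrk1, Nmrk2, Nadk, Nadk2, Nnt, Sirt1 and Sirt3. The choice was made with earlier results of these data known. All 10 passed the filter on low counts that left 13021 genes to test. The measurements were made on hearts of 15 male C57BL/6J mice, 3 in each of 5 groups, taken 18 weeks after surgery in a study of renalase (RNLS), a flavoprotein that oxidizes isomers of NAD(P)H. The WTSHAM group was wild type and had the operations without removal of kidney tissue. The WTCKD and WTCKD + RNLS groups were wild type with chronic kidney disease (CKD) made by removing most of the kidney mass in a pair of operations. The KOCKD and KOCKD + RNLS groups had the same disease and were rnls-/-, made with a TALEN aimed at exon 4 in C57BL/6J mice. The WTCKD and KOCKD groups received vector. No injection is named for WTSHAM, so CKD and vector cannot be told apart where WTCKD is set against WTSHAM. The WTCKD + RNLS and KOCKD + RNLS groups received AAV9-cTnT-RNLS, a virus that carries Rnls under the troponin T promoter of cardiomyocytes, by tail vein 2 weeks after the second operation. The mice were 6 to 8 weeks old at the start, and the wild-type and the knockout mice came from different suppliers. Genotype and supplier therefore cannot be told apart here, and no knockout sham hearts were analysed here. Over both genotypes Nampt rose and Nmrk2 fell in hearts given RNLS, and Nnt differed among the 5 groups.

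NAD+ carries electrons from fuel oxidation to the respiratory chain and is also consumed by sirtuins, PARPs and CD38, so a cell has to remake it. In the salvage route NAMPT joins nicotinamide to a ribose phosphate, and this is the rate-limiting step. NMRK1 and NMRK2 reach the same product, nicotinamide mononucleotide, from nicotinamide riboside, and NMRK2 is the form known from muscle and heart. NMNAT1 in the nucleus and NMNAT3 in mitochondria then complete NAD+. NADK in the cytosol and NADK2 in mitochondria add a phosphate to give NADP+. NNT, in the inner mitochondrial membrane, uses the proton gradient to pass hydride from NADH to NADP+. SIRT1, mainly in the nucleus, and SIRT3, in mitochondria, are deacetylases that consume NAD+. Nampt is also a textbook target of the circadian clock, whose CLOCK and BMAL1 (gene Arntl) proteins bind the E-box.

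RefSeq windows of 300 bases, from 250 before to 50 after a transcription start, were found for 8 of the 10 genes, 11 windows in all, on build GRCm38.p6. Nadk2 and Nnt were not in the table. On the older build mm9, whose gene annotation was at hand, Nampt spans chr12:33505200-33538234 (plus strand), Nmrk2 chr10:80660915-80664782 (minus strand) and Nnt chr13:120124255-120197804 (minus strand). Of the windows, 3 are printed below, for Nampt and Nmrk2 because they carry the RNLS result, and for Sirt1 because it holds the most E-boxes. Capitals mark the E-box CACGTG in Sirt1 and TATAAA in Nmrk2, and no capitals stand in Nampt because neither was present in its window. Only these exact letters within the 300 bases were searched, so other spellings and sites elsewhere in a gene were not looked for. The Nampt window lies on the plus strand of chr12:32820085-32820384, that of Nmrk2 on the minus strand of chr10:81201988-81202287, and that of Sirt1 on the minus strand of chr10:63338986-63339285.
Nampt: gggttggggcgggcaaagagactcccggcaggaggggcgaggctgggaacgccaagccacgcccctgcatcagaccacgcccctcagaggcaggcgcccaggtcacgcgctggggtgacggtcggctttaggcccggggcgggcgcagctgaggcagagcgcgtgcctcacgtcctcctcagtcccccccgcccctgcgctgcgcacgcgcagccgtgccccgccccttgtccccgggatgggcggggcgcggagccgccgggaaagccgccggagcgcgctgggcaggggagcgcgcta
Nmrk2: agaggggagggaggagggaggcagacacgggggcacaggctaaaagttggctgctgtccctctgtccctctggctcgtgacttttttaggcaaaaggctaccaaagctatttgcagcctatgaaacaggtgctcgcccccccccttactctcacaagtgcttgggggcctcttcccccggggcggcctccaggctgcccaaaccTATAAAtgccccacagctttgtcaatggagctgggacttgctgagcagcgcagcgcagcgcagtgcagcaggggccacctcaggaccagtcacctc
Sirt1: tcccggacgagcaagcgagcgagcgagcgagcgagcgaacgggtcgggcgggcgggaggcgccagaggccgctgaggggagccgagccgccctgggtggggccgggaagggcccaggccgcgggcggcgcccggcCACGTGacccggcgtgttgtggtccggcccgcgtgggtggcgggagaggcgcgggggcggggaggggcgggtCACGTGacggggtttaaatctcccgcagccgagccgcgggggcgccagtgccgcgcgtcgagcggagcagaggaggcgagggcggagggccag

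The E-box, which reads the same on both strands, was present in 2 of the 11 windows. Sirt1 held 2 copies, which started 115 and 43 bases before the transcription start, and 1 of the Nadk windows held 1 copy. Over all 32851 windows of the table, 7.15% held it. TATAAA, searched on both strands, was found in 1 of the 11 windows, that of Nmrk2, starting 46 bases before the transcription start, and in 13.6% of all windows. The D-box letters TTATGTAA and TTACGTAA, the site of the clock output factors Hlf and Tef, were in none of the 11 windows on either strand and in 1.06% of all windows. The last 2 searches were chosen after the expression values were seen.

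The libraries held 10480788 to 13424078 counted reads each. Of the marker lists looked at, the 5 cardiomyocyte markers (Myh6, Tnnt2, Tnni3, Actc1 and Ryr2) had the highest sum. It was 63735 to 87287 CPM (read counts scaled to the library size, here after adjustment by the trimmed mean of M-values, TMM). The markers of kidney and liver were at 7 counts or fewer in every library, and the tissue label of heart was therefore met. Atrial markers varied widely within groups, with a sum of 1.71 to 2.81 CPM in KOCKD + RNLS and 13.5 to 1712 CPM in KOCKD. Rnls was not among the genes counted, so neither the genotype nor the virus could be checked in these libraries. The library codes of KOCKD + RNLS begin with the same letters as some wild-type codes, and whether the labels are right was not tested.

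Compared per transcript length, the genes ranged from low to high expression. In FPKM, the deposited read counts scaled to transcript length and library size, the mean over 15 hearts was 215.6 for Nnt, 74.5 for Nampt, 28.8 for Sirt3, 21.0 for Nadk2, 12.5 for Nadk, 11.04 for Nmnat1, 8.13 for Nmnat3, 4.47 for Sirt1, 2.63 for Nmrk2 and 2.50 for Nmrk1. Nnt thus stood above 97.8% of all genes tested and Nampt above 94.0%. Nmrk1, at the bottom, stood above 32.8%. Neighbours at the low end ran into each other, since Nmrk2 covered 0.935 to 5.11 FPKM and Nmrk1 1.56 to 3.52 FPKM. The ranges of Nnt (161 to 300.2 FPKM) and Nampt (60.3 to 95.6 FPKM) did not meet each other or those of any other member. Variation between hearts of a group was smallest for Nadk, with a pooled coefficient of variation of 5.89%, and largest for Nmrk2, with 40.3%. Nmrk2 and Nmrk1 rested on 21 to 115 and 26 to 63 counts per library, and Nnt on 7455 to 13438.

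**Figure D1:**
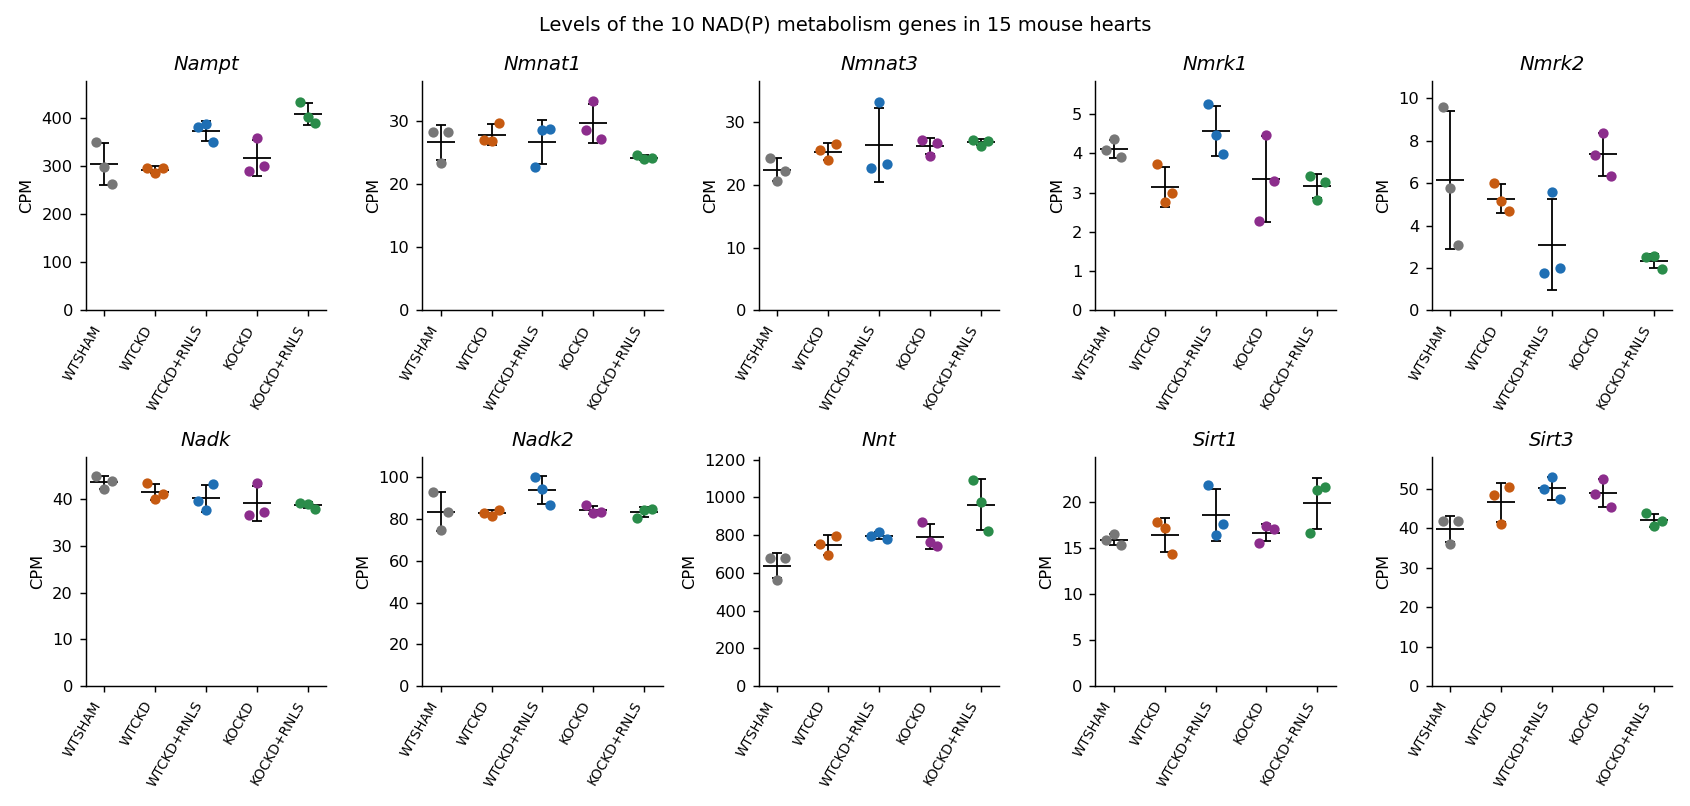
Level of each gene in CPM (vertical axes, starting at 0) in the 5 groups, with 1 point per heart and the group mean with its SD (n = 3) in black. Nampt was above 351 CPM in every heart given RNLS, Nmrk2 was under 2.57 CPM in 5 of the 6 hearts given RNLS, and Nnt was lowest in the 3 WTSHAM hearts.

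Nampt, the salvage enzyme, was higher in hearts given RNLS in both genotypes. Its levels were 350.4, 299 and 264 CPM in WTSHAM and 297, 285 and 297 CPM in WTCKD. They were 382, 389 and 351 CPM in WTCKD + RNLS, 290.1, 359 and 302 CPM in KOCKD, and 434, 403 and 390.3 CPM in KOCKD + RNLS. Every heart of the RNLS groups lay above every heart of the vector group of its genotype, and 1 KOCKD heart reached the level of the lowest WTCKD + RNLS heart. In KOCKD + RNLS against KOCKD the log2 fold change was 0.37 (SE 0.10, n = 3 and 3, edgeR adjusted p = 0.0226), a 1.29-fold rise. In WTCKD + RNLS against WTCKD it was 0.35 (SE 0.10, edgeR adjusted p = 0.0599), which missed the threshold of 0.05. The 2 effects differed by 0.02 on the log2 scale, with a 95% confidence interval of -0.29 to 0.32 (edgeR adjusted p = 0.968). Averaged over both genotypes, Nampt rose by 0.36 (SE 0.07, edgeR adjusted p = 0.00309). Nampt in WTCKD, with CKD and vector, was at a log2 difference of -0.05 (SE 0.10, edgeR adjusted p = 0.836) from WTSHAM. The call within the knockouts was lost in 4 of the 6 fits that left out 1 library (without KOCKD replicate 1 or 3, or KOCKD + RNLS replicate 1 or 2, adjusted p = 0.0659 to 0.0937) and with a correction for gene length (0.29, adjusted p = 0.125). The mean over both genotypes passed in all 12 fits that left out 1 library.

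The group means of Nampt ran from WTCKD (293 ± 6.90 CPM, SD) through WTSHAM (304 ± 43.4), KOCKD (317 ± 37.0) and WTCKD + RNLS (374 ± 20.2) to KOCKD + RNLS (409 ± 22.4), each with n = 3. No neighbours in this order differed by the test, with edgeR adjusted p = 0.836, 0.730, 0.168 and 0.573 from the lowest pair to the highest. KOCKD + RNLS was above WTSHAM by 0.43 (SE 0.10, edgeR adjusted p = 0.0125), called in 4 of 6 fits without 1 library (not without WTSHAM replicate 3 or KOCKD + RNLS replicate 1), and above WTCKD by 0.48 (SE 0.10, edgeR adjusted p = 0.0103), called in all 6. These further pairs, 6 in all, were added after the test over the 5 groups was seen.

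Clock genes moved with Nampt between the same groups. Of 16 clock genes tested, 9 rose and 3 fell in WTCKD + RNLS against WTCKD, and 8 rose and 2 fell in KOCKD + RNLS against KOCKD, all at an edgeR adjusted p under 0.05. In WTCKD against WTSHAM and in KOCKD against WTCKD 0 were called by edgeR or DESeq2, with an unadjusted p under 0.05 for 1 and 4 of them. Arntl, the activator, was at 7.67, 21.4 and 32.6 CPM in WTSHAM, 30.5, 30.8 and 34.03 CPM in WTCKD and 23.4, 24.5 and 9.99 CPM in KOCKD. It was at 1.34, 1.86 and 2.45 CPM in WTCKD + RNLS and 1.63, 1.49 and 1.41 CPM in KOCKD + RNLS, a mean log2 difference of -3.86 (SE 0.34, edgeR adjusted p = 1.34e-05). The repressor gene Per2 was at 34.4 to 62.8 CPM in the 6 hearts given RNLS and at 3.76 to 13.3 CPM in the 6 vector hearts. Among the other clock genes, Per3, a relative of Per2, rose by 1.99, Hlf by 1.71 and Tef by 1.35, averaged over both genotypes, and Ciart, a repressor, rose by 2.72 on the log2 scale (edgeR adjusted p from 3.46e-05 to 0.000923). The WTSHAM heart with the lowest Arntl (7.67 CPM) and the highest Per2 (33.9 CPM) of its group was also the one with the highest Nampt (350.4 CPM). In KOCKD it was otherwise, since replicate 3, with the lowest Arntl (9.99 CPM) and the highest Per2 (13.3 CPM), had Nampt at 302 CPM, and replicate 2, with the highest Arntl (24.5 CPM), had the highest Nampt (359 CPM). The sum of the 16 clock genes was 581 to 640.4 CPM in WTCKD and 962 to 1202 CPM in WTCKD + RNLS, and 591 to 987 CPM in KOCKD and 1035 to 1244 CPM in KOCKD + RNLS. The hour of collection is not given in the labels, and the part of the clock genes in the Nampt result was not tested.

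**Figure D2:**
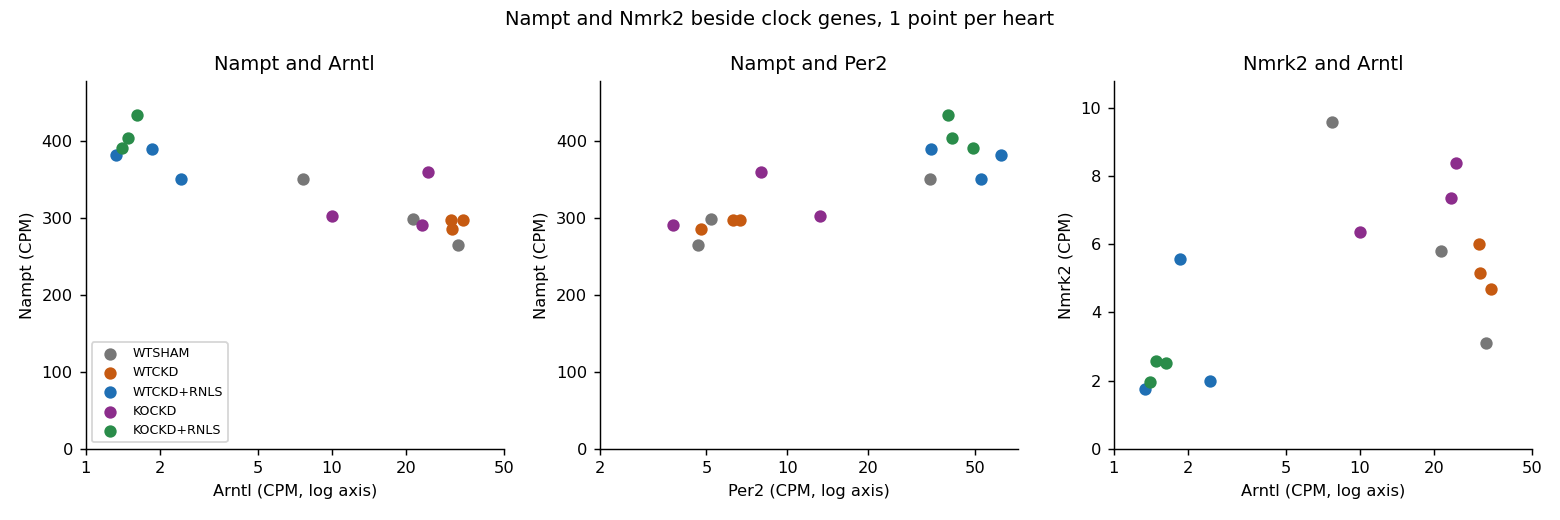
Nampt against Arntl, Nampt against Per2, and Nmrk2 against Arntl, with 1 point per heart coloured by group (CPM on both axes, the horizontal ones logarithmic). The 6 hearts given RNLS form the cluster with Arntl at 2.45 CPM or less, in which Nampt was 351 CPM or more.

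Nmrk2, the muscle form of the riboside kinase, was lower in hearts given RNLS. It was at 9.59, 5.79 and 3.09 CPM in WTSHAM, 6.00, 5.14 and 4.68 CPM in WTCKD, and 1.75, 5.57 and 1.99 CPM in WTCKD + RNLS. In the knockouts it was at 7.35, 8.39 and 6.36 CPM in KOCKD and 2.52, 2.56 and 1.97 CPM in KOCKD + RNLS. The 2 knockout groups were far apart, while among the wild-type hearts WTCKD + RNLS replicate 2 lay inside the range of WTCKD. In KOCKD + RNLS against KOCKD the log2 fold change was -1.64 (SE 0.41, edgeR adjusted p = 0.0149), a level 0.322 times that of KOCKD, with a 95% confidence interval of -2.50 to -0.77. In WTCKD + RNLS against WTCKD it was -0.79 (SE 0.40, edgeR adjusted p = 0.294). The effects of the 2 genotypes differed by -0.85 (SE 0.57, edgeR adjusted p = 0.464). Averaged over both, Nmrk2 fell by 1.21 on the log2 scale (SE 0.29, edgeR adjusted p = 0.00899), also in all 12 fits that left out 1 library. The knockout call was lost without KOCKD replicate 2 or without KOCKD + RNLS replicate 2 or 3 (adjusted p = 0.0513 to 0.0576). Without WTCKD + RNLS replicate 2 the mean fall was 1.57 and Nmrk2 was called within the wild type as well.

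The group means of Nmrk2, from the highest, were 7.37 ± 1.01 CPM in KOCKD, 6.16 ± 3.26 in WTSHAM, 5.27 ± 0.671 in WTCKD, 3.10 ± 2.14 in WTCKD + RNLS and 2.35 ± 0.332 in KOCKD + RNLS (SD, n = 3 each). Neighbours in this order did not differ by the test, with edgeR adjusted p = 0.667, 0.823, 0.294 and 0.733. KOCKD + RNLS was below WTSHAM by a log2 difference of -1.37 (SE 0.41, edgeR adjusted p = 0.0406), a call kept in 1 of 6 fits without 1 library (that without WTSHAM replicate 3). All 3 KOCKD hearts lay above all 3 WTCKD hearts, at a difference of 0.48 (SE 0.38, edgeR adjusted p = 0.647).

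Nmrk1, the form found in most tissues, did not follow Nmrk2. Its levels were 4.09, 4.36 and 3.90 CPM in WTSHAM, 3.72, 2.75 and 2.98 CPM in WTCKD and 5.26, 4.46 and 3.98 CPM in WTCKD + RNLS. They were 2.27, 4.47 and 3.30 CPM in KOCKD and 3.41, 2.81 and 3.28 CPM in KOCKD + RNLS. WTCKD lay below both other wild-type groups without overlap, and the knockout groups overlapped. The log2 difference was -0.38 (SE 0.24, edgeR adjusted p = 0.438) in WTCKD against WTSHAM and 0.53 (SE 0.24, edgeR adjusted p = 0.221) in WTCKD + RNLS against WTCKD. In the knockouts it was -0.08 (SE 0.24, edgeR adjusted p = 0.859). The level of Nmrk2 per level of Nmrk1, as a ratio of FPKM within a heart, was 1.252 to 1.49 in WTCKD and 1.49 to 2.57 in KOCKD. With RNLS it was 0.266 to 0.996 in WTCKD + RNLS and 0.478 to 0.726 in KOCKD + RNLS, under 1 in all 6 of these hearts. In WTCKD + RNLS replicate 2 the pair was about equal, with Nmrk2 at 2.80 and Nmrk1 at 2.81 FPKM on 60 and 48 counts. In WTSHAM the ratio spread from 0.631 to 1.87. The ratios were not tested.

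**Figure D3:**
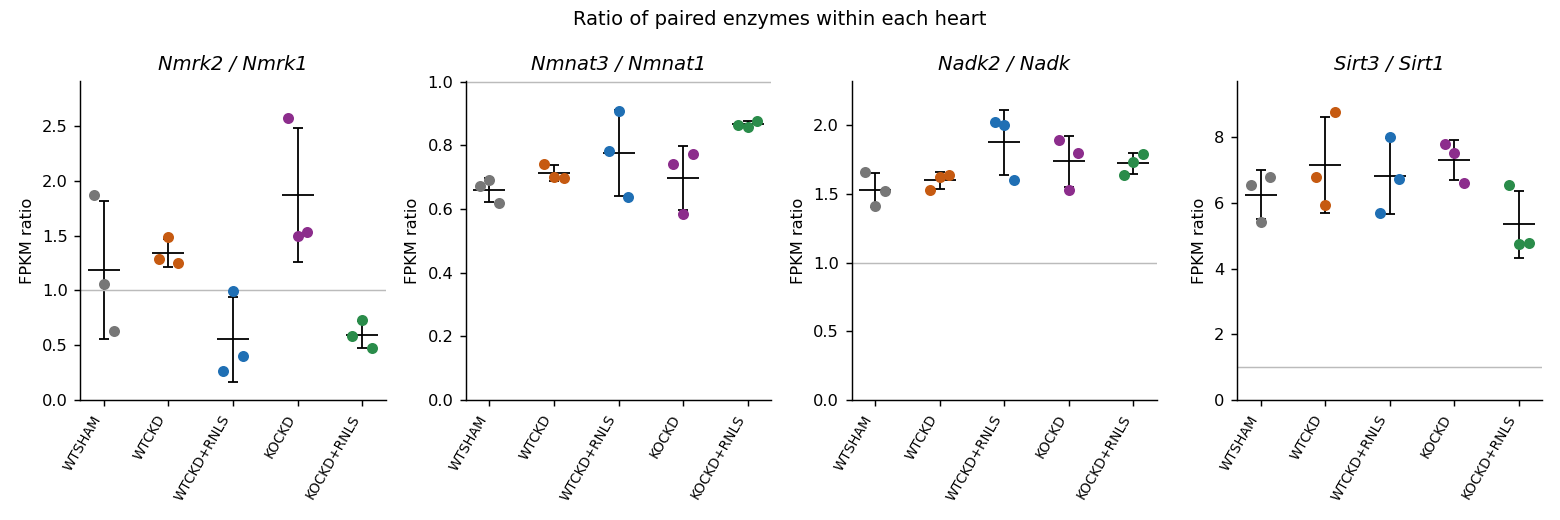
FPKM of 1 enzyme divided by that of its partner in the same heart (vertical axes, no unit, starting at 0), with 1 point per heart, the group mean and SD (n = 3) in black, and a grey line at a ratio of 1. Nmrk2 per Nmrk1 was above 1 in the 6 vector hearts. It was under 1 in all 6 hearts given RNLS, though at 0.996 in WTCKD + RNLS replicate 2. Nmnat3 stayed below Nmnat1, Nadk2 above Nadk and Sirt3 above Sirt1 in all 15 hearts.

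Nmnat1, the nuclear enzyme, was at 28.3, 23.5 and 28.3 CPM in WTSHAM, 27.0, 26.8 and 29.8 CPM in WTCKD and 22.7, 28.7 and 28.7 CPM in WTCKD + RNLS. It was at 28.7, 33.2 and 27.2 CPM in KOCKD and 24.6, 24.0 and 24.2 CPM in KOCKD + RNLS. The 3 KOCKD + RNLS hearts were close together and all below KOCKD, by a log2 difference of -0.29 (SE 0.11, edgeR adjusted p = 0.0931). The same difference in the wild type was -0.06 (SE 0.11, edgeR adjusted p = 0.822), and the 2 effects differed by -0.23 (SE 0.16, edgeR adjusted p = 0.483). Nmnat3, the mitochondrial enzyme, was at 24.3, 20.7 and 22.3 CPM in WTSHAM, 25.5, 24.0 and 26.5 CPM in WTCKD and 22.7, 33.2 and 23.4 CPM in WTCKD + RNLS. It was at 27.1, 24.7 and 26.7 CPM in KOCKD and 27.1, 26.3 and 27.1 CPM in KOCKD + RNLS. Apart from the 1 high heart in WTCKD + RNLS the CKD groups covered a narrow band. Its log2 differences ran from 0.03 to 0.18 in the 4 main comparisons, the largest in WTCKD against WTSHAM (SE 0.13, edgeR adjusted p = 0.511). Nmnat3 per Nmnat1 was 0.583 to 0.771 in KOCKD and 0.859 to 0.877 in KOCKD + RNLS.

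Neither NAD+ kinase was called in a main comparison. Nadk was at 44.9, 42.3 and 43.9 CPM in WTSHAM, 43.4, 40.1 and 41.3 CPM in WTCKD, 39.6, 37.7 and 43.4 CPM in WTCKD + RNLS, 36.7, 43.5 and 37.3 CPM in KOCKD, and 39.3, 39.0 and 38.0 CPM in KOCKD + RNLS. The groups overlapped in all 4 main comparisons, with log2 differences of -0.09 to -0.01 and confidence intervals that lay within -0.27 and 0.17. Nadk2 was at 93.1, 74.6 and 83.3 CPM in WTSHAM, 82.9, 81.4 and 84.6 CPM in WTCKD and 100.2, 94.2 and 86.8 CPM in WTCKD + RNLS. It was at 86.7, 83.1 and 83.6 CPM in KOCKD and 80.5, 84.6 and 85.1 CPM in KOCKD + RNLS. All WTCKD + RNLS hearts lay above all WTCKD hearts, by a log2 difference of 0.18 (SE 0.08, edgeR adjusted p = 0.242). In the knockouts the difference was -0.02 (SE 0.08, edgeR adjusted p = 0.901).

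Nnt, the transhydrogenase, was lowest in the sham hearts and highest in KOCKD + RNLS. Its levels were 678, 561 and 676 CPM in WTSHAM, 752, 693 and 798 CPM in WTCKD and 795, 815 and 780.1 CPM in WTCKD + RNLS. They were 869, 765 and 743 CPM in KOCKD and 1092, 973 and 819 CPM in KOCKD + RNLS. All 12 hearts with CKD were above all 3 sham hearts. Nnt differed among the 5 groups (edgeR test over 5 groups, adjusted p = 0.0106), also in all 15 fits that left out 1 library. edgeR called it in none of the 4 main pairwise comparisons, and DESeq2 called it in KOCKD + RNLS against KOCKD (0.28, adjusted p = 0.0497). The log2 difference was 0.23 (SE 0.10, edgeR adjusted p = 0.268) in WTCKD against WTSHAM, 0.09 (SE 0.10, adjusted p = 0.684) in WTCKD + RNLS against WTCKD and 0.08 (SE 0.10, adjusted p = 0.779) in KOCKD against WTCKD. In KOCKD + RNLS against KOCKD it was 0.28 (SE 0.10, edgeR adjusted p = 0.0778), and without KOCKD + RNLS replicate 3, the lowest heart of its group, it was 0.38 (adjusted p = 0.0352).

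The group means of Nnt were 638 ± 67.3 CPM in WTSHAM, 747 ± 52.5 in WTCKD, 792 ± 67.5 in KOCKD, 797 ± 17.7 in WTCKD + RNLS and 961 ± 137 in KOCKD + RNLS (SD, n = 3 each). Neighbours in this order did not differ by the test (edgeR adjusted p = 0.268, 0.779, 0.972 and 0.228). The ends did, since KOCKD + RNLS exceeded WTSHAM by 0.59 (SE 0.10, edgeR adjusted p = 0.00204), a 1.51-fold difference that was called in all 6 fits without 1 library. It exceeded WTCKD by 0.36 (SE 0.10, adjusted p = 0.0447), a call kept in 1 of 6 such fits (that without KOCKD + RNLS replicate 3). These groups differ in surgery, genotype, supplier and virus, or in the last 3 of these, which cannot be told apart in such a pair. As background, the C57BL/6J substrain is known to carry a deletion within Nnt, and gene-level counts do not show which exons the reads came from. These RNA levels therefore do not show how much working NNT enzyme the hearts held, and NNT protein was not measured.

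Sirt1, the nuclear deacetylase, was at 15.8, 16.5 and 15.3 CPM in WTSHAM, 17.8, 17.2 and 14.3 CPM in WTCKD and 21.8, 16.4 and 17.5 CPM in WTCKD + RNLS. It was at 15.6, 17.3 and 17.1 CPM in KOCKD and 16.7, 21.3 and 21.6 CPM in KOCKD + RNLS. In each RNLS group at least 1 heart lay within the vector range. The mean log2 difference with RNLS was 0.22 (SE 0.09, edgeR adjusted p = 0.124). Its 2 E-boxes, printed above, make it the only member beside Nadk, of the 8 with a window, that held the motif.

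Sirt3, the mitochondrial deacetylase, was at 41.8, 36.0 and 41.9 CPM in WTSHAM, 48.4, 41.0 and 50.5 CPM in WTCKD and 49.98, 53.0 and 47.4 CPM in WTCKD + RNLS. It was at 48.8, 52.5 and 45.4 CPM in KOCKD and 43.8, 40.5 and 41.8 CPM in KOCKD + RNLS. All KOCKD + RNLS hearts lay below all KOCKD hearts, and 1 of them was above the highest sham heart. The log2 difference from KOCKD was -0.22 (SE 0.09, edgeR adjusted p = 0.126). In the wild type the difference with RNLS was 0.10 (SE 0.09, edgeR adjusted p = 0.600), and the groups overlapped. The 2 effects differed by -0.32 (SE 0.13, unadjusted p = 0.0289, edgeR adjusted p = 0.234). Against WTSHAM, Sirt3 was higher by 0.33 (SE 0.09, edgeR adjusted p = 0.0438) in WTCKD + RNLS and by 0.29 (SE 0.09, adjusted p = 0.0494) in KOCKD, and each of these calls was kept in 1 of 6 fits without 1 library (that without WTSHAM replicate 1). Both were also lost with no filter on low counts, with gene length offsets, with a replicate block and in fits to only the libraries compared. WTCKD was higher than WTSHAM by 0.23 (SE 0.09, adjusted p = 0.222).

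CKD against sham in the wild type called 0 of the 10 members and 2.3% of all 13021 genes at an edgeR adjusted p under 0.05. The unadjusted p was under 0.05 for 2 members, Nnt and Sirt3, and for 17.6% of all genes, and DESeq2 called no member. The sham and CKD hearts did not overlap for 2 members, Nnt (higher) and Nmrk1 (lower), against 22.5% of all genes. The median log2 difference was 0.02 over the members and -0.01 over all genes.

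With RNLS in the wild type, 0 of the 10 members and 4.47% of all genes were called. Nampt, Nmrk1 and Nadk2 and 20.2% of all genes had an unadjusted p under 0.05, and DESeq2 called 1 member, Nampt (adjusted p = 0.0191). By the study's own rule, a log2 fold change over 0.32 in either direction with an unadjusted p under 0.05, 2 members (Nampt and Nmrk1, both higher) and 14.4% of all genes passed. The groups did not overlap for 3 members, Nampt, Nmrk1 and Nadk2, all higher, against 21.2% of all genes. The median difference was 0.10 over the members and 0.01 over all genes.

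With RNLS in the knockouts, 2 of the 10 members were called, Nampt (higher) and Nmrk2 (lower), against 16.1% of all genes. The study's rule called the same 2 members and 22.3% of all genes. The groups did not overlap for 4 members, Nampt (higher) and Nmnat1, Nmrk2 and Sirt3 (lower), against 40.6% of all genes. These shares of members are near the background. The median difference was -0.02 over the members and -0.01 over all genes. The mean RNLS effect over both genotypes called the same 2 members in the same directions, against 18% of all genes. The test over the 5 groups called 3 members, Nampt, Nmrk2 and Nnt, against 22.2% of all genes, and Sirt3 had an adjusted p of 0.0548.

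Between the genotypes, KOCKD against WTCKD called 0 of the 10 members and 0% of all genes by edgeR. No member and 10.1% of all genes had an unadjusted p under 0.05, and DESeq2 called 8 genes. The groups did not overlap for 1 member, Nmrk2, against 19.3% of all genes. For the RNLS effect in KO minus that in WT, edgeR called 0 members and 0% of all genes. An unadjusted p under 0.05 was found for 1 member, Sirt3, and for 17.6% of all genes, and DESeq2 called 359 genes, none of them a member. The mean genotype difference over both treatments called 0 members and 0.0768% of all genes, with Nnt, higher in the knockouts by 0.18 (SE 0.07, edgeR adjusted p = 0.462), as the 1 member with an unadjusted p under 0.05, against 9.15% of all genes. WTCKD is the control in 3 of these comparisons and KOCKD in 2, so they share their control hearts.

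The 6 further pairs were read in the same way. Against WTSHAM, WTCKD + RNLS called 1 member (Sirt3, higher) and 7.69% of all genes, and KOCKD called 1 member (Sirt3, higher) and 13.8% of all genes. KOCKD + RNLS called 3 members against WTSHAM, Nampt and Nnt (higher) and Nmrk2 (lower), beside 11.1% of all genes, and 2 members against WTCKD, Nampt and Nnt (both higher), beside 7.51% of all genes. KOCKD against WTCKD + RNLS called 0 members and 6.64% of all genes, with an unadjusted p under 0.05 for Nampt and Nmrk2 and for 22.7% of all genes. KOCKD + RNLS against WTCKD + RNLS called 0 members and 0.338% of all genes, with an unadjusted p under 0.05 for Nmrk1, Nnt and Sirt3 and for 15.5% of all genes.

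**Figure D4:**
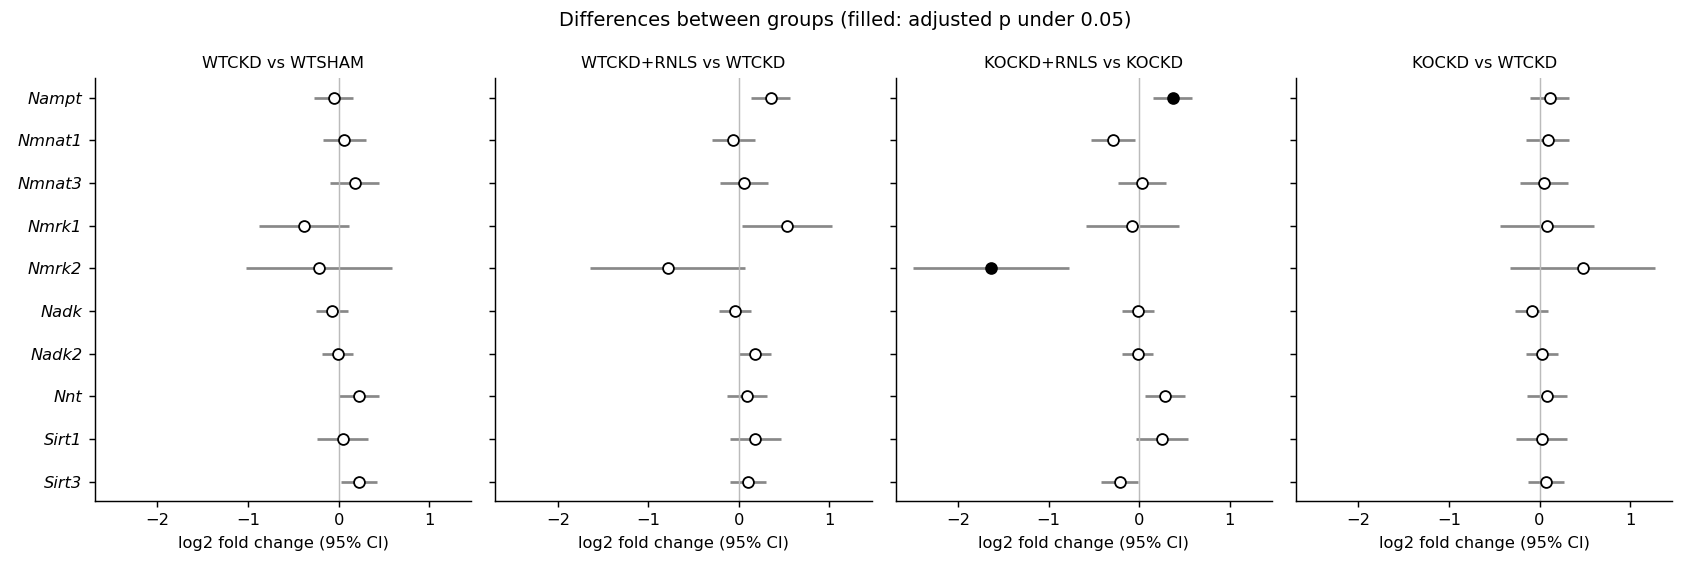
Log2 fold change of each gene in the 4 main comparisons (horizontal axes, points) with its 95% confidence interval (bars), filled where the edgeR adjusted p was under 0.05. Nampt (0.37) and Nmrk2 (-1.64) in KOCKD + RNLS against KOCKD are the only filled points, and the intervals of Nmrk1 and Nmrk2, the least abundant genes, are the widest.

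Of 62 other genes listed for NAD(P) metabolism, 54 could be tested, grouped by role. In WTCKD against WTSHAM 1 rose and 3 fell, in WTCKD + RNLS against WTCKD 2 rose and 1 fell, and in KOCKD + RNLS against KOCKD 4 rose and 2 fell. These are 7.41%, 5.56% and 11.1% of the 54, against 2.3%, 4.47% and 16.1% of all genes. The mean RNLS effect over both genotypes called 9 higher and 1 lower, 18.5% of the 54 against 18% of all genes. The median log2 difference of the 54 was -0.01, 0.07 and 0.08 in the pairwise comparisons. KOCKD against WTCKD called 0 of them by edgeR or DESeq2, with an unadjusted p under 0.05 for 3.

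Among the 15 other NAD+ consumers tested, 2 fell in WTCKD against WTSHAM. Parp14, an interferon-inducible ADP-ribosyltransferase, was at 121, 142 and 97.1 CPM in WTSHAM and at 32.1 to 50.2 CPM in all 12 CKD hearts, with a log2 fold change of -1.43 (SE 0.14, edgeR adjusted p = 0.000142) in WTCKD. Parp9, a relative that interferon also induces, fell by 1.12 (SE 0.18, adjusted p = 0.00285). With RNLS in the wild type 1 consumer fell, Cd38, the NAD+ glycohydrolase, by 0.53 (SE 0.14, edgeR adjusted p = 0.0480). In the knockouts 2 rose, Tnks (tankyrase) by 0.62 (SE 0.10, adjusted p = 0.00244) and Parp4 by 0.48 (SE 0.14, adjusted p = 0.0311). The wild-type differences of Tnks and Parp4 were 0.24 (SE 0.10, edgeR adjusted p = 0.208) and 0.16 (SE 0.14, adjusted p = 0.582). That of Cd38 in the knockouts was 0.07 (SE 0.14, edgeR adjusted p = 0.764). Over both genotypes Tnks rose by 0.43 (SE 0.07, edgeR adjusted p = 0.00113) and Parp4 by 0.32 (SE 0.10, adjusted p = 0.0361). Tnks was at 40.3, 44.5 and 46.6 CPM in KOCKD and at 72.7, 66.6 and 62.7 CPM in KOCKD + RNLS. Parp1, the main DNA-damage PARP, rose by 0.18 (SE 0.05, adjusted p = 0.0252) over both genotypes.

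In the synthesis lists few genes were called. Of 6 salvage genes tested beside the members, 0 were called in the 4 main comparisons by edgeR or DESeq2, with an unadjusted p under 0.05 for 2 with RNLS in the wild type and for 1 in KOCKD against WTCKD, and Slc25a51, the mitochondrial NAD+ carrier, rose by 0.16 (SE 0.05, edgeR adjusted p = 0.0394) over both genotypes. Of 3 genes tested on the way from tryptophan, Afmid, the formamidase, was at 7.42, 8.05 and 8.68 CPM in WTSHAM and 13.8, 12.7 and 12.7 CPM in WTCKD. It rose by 0.69 in WTCKD against WTSHAM (SE 0.17, adjusted p = 0.0415) and fell by 0.62 (SE 0.17, adjusted p = 0.0206) in KOCKD + RNLS against KOCKD. The difference of Afmid with RNLS in the wild type was -0.02 (SE 0.16, edgeR adjusted p = 0.957). Over both genotypes it was -0.32 (SE 0.12, edgeR adjusted p = 0.0669), which was not called. Of the 6 genes that clear nicotinamide or hydrolyse NAD(H), Aox1, an aldehyde oxidase, rose by 0.74 (SE 0.18, adjusted p = 0.0119) in KOCKD + RNLS, and Nudt12, an NADH hydrolase, rose by 0.28 (SE 0.09, adjusted p = 0.0461) over both genotypes. The difference of Aox1 with RNLS was 0.14 in the wild type (SE 0.18, edgeR adjusted p = 0.717). Over both genotypes it was 0.44 (SE 0.12, edgeR adjusted p = 0.0217).

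A list of 14 genes was drawn up around NADPH production. In it Mthfd1l, a ligase of the mitochondrial folate pathway that does not itself make NADPH, rose with RNLS in both genotypes. It was at 0.930, 1.01 and 0.596 CPM in WTCKD and 3.84, 3.06 and 2.68 CPM in WTCKD + RNLS, and at 0.787, 1.49 and 1.69 CPM in KOCKD and 3.66, 3.97 and 5.06 CPM in KOCKD + RNLS. The log2 fold changes were 1.91 (SE 0.33, edgeR adjusted p = 0.00518) and 1.66 (SE 0.31, adjusted p = 0.00343). Mthfd2, an enzyme of the same pathway, fell by 0.68 (SE 0.20, adjusted p = 0.0267) over both genotypes. Among 10 genes of the NADH shuttles, Gpd1, the cytosolic glycerol phosphate dehydrogenase, was at 122, 99.8 and 89.2 CPM in WTSHAM, 67.5, 62.9 and 71.7 CPM in WTCKD and 134, 122 and 112 CPM in WTCKD + RNLS. Gpd1 fell by 0.62 in WTCKD against WTSHAM (SE 0.12, edgeR adjusted p = 0.0135). It rose by 0.87 with RNLS in the wild type (SE 0.12, adjusted p = 0.00179), against 0.08 (SE 0.12, adjusted p = 0.680) in the knockouts. For the RNLS effect in KO minus that in WT, edgeR called 0 of these 10 shuttle genes. DESeq2 called 2 of them, against 359 of all genes. Gpd1l, the paralog of Gpd1, rose by 0.21 (SE 0.06, adjusted p = 0.0349) over both genotypes, and Mdh1, the cytosolic malate dehydrogenase, fell by 0.30 (SE 0.09, adjusted p = 0.0376) in KOCKD + RNLS. The difference of Mdh1 with RNLS was 0.14 in the wild type (SE 0.09, edgeR adjusted p = 0.422). Over both genotypes it was -0.08 (SE 0.07, edgeR adjusted p = 0.434). Of 5 cardiomyocyte stress genes, edgeR and DESeq2 called 0 in the 4 main comparisons, and the unadjusted p was under 0.05 for 0 with CKD, 1 with RNLS in the wild type, 2 with RNLS in the knockouts and 1 in KOCKD against WTCKD.

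Markers of other heart cells also differed between the groups in which Nampt and Nmrk2 did. The 4 endothelial markers summed to 1058 to 1239 CPM in WTCKD and 767 to 826 CPM in WTCKD + RNLS, and to 945 to 1120 CPM in KOCKD and 890.0 to 908 CPM in KOCKD + RNLS, with 3 and 1 of them called lower. The 5 fibroblast markers summed to 873 to 1325 CPM and 727 to 919 CPM in the wild-type groups, and to 786 to 1010 CPM and 702 to 809 CPM in the knockout groups, with 1 of 5 called lower in each genotype. In the same order, the 4 macrophage markers summed to 105 to 133, 72.0 to 101, 75.5 to 101 and 69.8 to 93.9 CPM. None of them was called. The 3 erythrocyte markers summed to 33.4 to 90.3, 187 to 454, 44.9 to 321 and 63.2 to 258 CPM. Of these, 1 was called higher with RNLS in the wild type and 0 in the knockouts. The cardiomyocyte sum was 64944 to 76671 CPM in WTCKD, 81562 to 87287 CPM in WTCKD + RNLS, 63735 to 68379 CPM in KOCKD and 75485 to 79926 CPM in KOCKD + RNLS. Its 5 markers did not move as 1 in the knockouts, where Myh6 (0.52) and Ryr2 (0.34) were called higher and Tnnt2, Tnni3 and Actc1 had log2 differences of -0.05, -0.19 and -0.10. In the wild type edgeR called 0 of the 5, with differences of 0.04 to 0.31 and an unadjusted p under 0.05 for Myh6 and Tnnt2. The 3 atrial markers that passed the filter were called lower in KOCKD + RNLS against KOCKD. Fewer cells of a type and less RNA per cell cannot be told apart in whole hearts, and the part of these markers in the results was not tested.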

How the data were processed

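RNA-seq libraries of 15 hearts, 3 per group, were grouped by their sample labels, and the 3 of a group were taken as separate mice. The authors deposited raw counts per gene without normalization. By the study's methods and the submitters' processing notes, these came from Trimmomatic (trimming), hisat2 (mapping) and htseq-count (counting). The authors also deposited FPKM, attributed to cufflinks. Each FPKM equals a count over 1 length per gene and over the library's total. The genome build is named as mm9 in the study's supplement and as GRCm39 in the processing notes; versions, annotation and strand setting are not given in the sources used here. Reads from antisense or overlapping genes may therefore not be separated. All 30 value columns belonged to a listed sample.

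Counts were tested with edgeR 4.0.16 in R 4.3.3 after its default filterByExpr filter and TMM scaling. The quasi-likelihood model held a mean per group and took in all 15 libraries, and p-values were adjusted by Benjamini-Hochberg over all 13021 genes tested. A gene was called at an adjusted p under 0.05. The p-values weigh a difference between groups against the spread between hearts within groups, estimated from all 15 libraries. Counts of 10480788 to 13424078 per library limit the precision of the low genes. DESeq2 1.42.0 served as an alternative, beside other scaling, no filter, gene length offsets, a replicate block, only the libraries compared, and leaving out each library. On simulated counts for KOCKD + RNLS against KOCKD, edgeR recovered 141 of 200 changed genes with 6 false calls among 12838 genes. The changes put in were larger than the difference of every member but Nmrk2 in this comparison (Nampt 0.37). The simulated spread followed the trend for a gene's level, not each gene's own spread. These numbers therefore do not give the power for the members. Python 3.11.15 with pandas 2.3.3 and matplotlib 3.10.9 made tables and figures.

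All 10 members were described in every group. Of the other lists (salvage, tryptophan, NAD+ consumers, clearance, NADPH, NADH shuttles, clock), genes with an adjusted p under 0.05 in a main comparison or mean effect were named, at most 6 per list, and for each called member the 3 genes most like it. The members and lists were chosen with earlier results of these data known. Promoter sequences came from RefSeq, GRCm38.p6. A protein comparison of paired enzymes was planned and was not done, since no protein table was at hand. Rnls was not analysed here.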

Additional observations from a re-analysis of the deposited data

Results flagged for a closer look

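Sirt3, the mitochondrial NAD+-dependent deacetylase, was the 1 member for which every heart given RNLS lay on one side of its vector group's mean in the wild type and on the other side in the knockouts. All 3 WTCKD + RNLS hearts (47.4 to 53.0 CPM) were above the WTCKD mean of 46.6 CPM, and all 3 KOCKD + RNLS hearts (40.5 to 43.8 CPM) were below the KOCKD mean of 48.9 CPM. The wild-type groups still overlapped, since WTCKD replicate 3 (50.5 CPM) was above WTCKD + RNLS replicates 1 (49.98 CPM) and 3 (47.4 CPM). Such a split was looked for among the members only, and its share among all genes was not counted. Sirt3 was picked by this split, so the confidence interval given next, from the same hearts, is that of a selected gene. The RNLS effect in KO minus that in WT was -0.32 on the log2 scale (SE 0.13, 95% confidence interval -0.60 to -0.04, edgeR adjusted p = 0.234), so the difference did not pass the test once adjusted over all genes. It stayed between -0.38 and -0.23 in the 12 fits that left out 1 library, and was -0.13 with gene length offsets (adjusted p = 0.723). The estimates of Nmrk1 and Nadk2 also had opposite signs in the genotypes, without such a split of the hearts, and differed by -0.61 (SE 0.34, edgeR adjusted p = 0.362) and -0.19 (SE 0.12, edgeR adjusted p = 0.400).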

How the results depend on the processing

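Over the planned comparisons, the number of members called stayed within 1.5 times the reported number in 120 alternative fits and moved further in 9, and no member with an unadjusted p under 0.05 changed direction. For WTCKD + RNLS against WTCKD the number was 0, and became 1 with DESeq2 (Nampt) and 2 with the study's rule (Nampt and Nmrk1); without 1 library it was 0 to 1, the 1 being Nmrk2 without WTCKD + RNLS replicate 2. For KOCKD + RNLS against KOCKD it was 2, and became 1 with gene length offsets, where Nmrk2 remained and Nampt did not; without 1 library it was 0 to 2. Of these fits, KOCKD + RNLS replicate 2 left out gave 0, KOCKD replicate 2 gave Nampt alone, KOCKD replicate 1 or 3 or KOCKD + RNLS replicate 1 gave Nmrk2 alone, and KOCKD + RNLS replicate 3 gave Nampt and Nnt. DESeq2 called Nnt as well. The cause was not tested. The mean RNLS effect called Nampt and Nmrk2 under every alternative run. In the test over the 5 groups Nmrk2 was lost without KOCKD replicate 1 or 2 or any KOCKD + RNLS library (edgeR adjusted p = 0.0570 to 0.0839), and Sirt3 was called with DESeq2 (adjusted p = 0.0245) and without WTCKD replicate 2 (adjusted p = 0.0381). Ordered by CPM in place of FPKM, Sirt3 and Nadk2 changed places.

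Counts over all genes also moved with the processing. Gene length offsets called 710 genes in place of 2095 in KOCKD + RNLS against KOCKD and 1005 in place of 1795 in KOCKD against WTSHAM. DESeq2 called 568 in place of 299 in WTCKD against WTSHAM, 893 in place of 582 in WTCKD + RNLS against WTCKD, 8 in place of 0 in KOCKD against WTCKD, 359 in place of 0 for the RNLS effect in KO minus that in WT, and 82 in place of 10 for the mean genotype difference. Fits to only the libraries compared called 99 with CKD, 380 with RNLS in the wild type, 2 in KOCKD against WTCKD and 22 for the mean genotype difference. No filter on low counts called 28 for the latter and 5 in KOCKD against WTCKD, and RLE size factors 4 in KOCKD against WTCKD. Of the further pairs, DESeq2 called 347 and no filter 87 in place of 44 in KOCKD + RNLS against WTCKD + RNLS, and fits to only the libraries compared called 294 in place of 1001 in WTCKD + RNLS against WTSHAM, 1127 in place of 1795 in KOCKD against WTSHAM, 2045 in place of 978 in KOCKD + RNLS against WTCKD and 323 in place of 864 in KOCKD against WTCKD + RNLS. No scaling moved the median gene by more than 0.03 on the log2 scale.

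The labels give no pairing of replicate numbers. Deviations from the group mean correlated at -0.36 to 0.33 (median -0.04, 30 pairs) between libraries of the same number and at -0.33 to 0.39 (median 0.01, 60 pairs) otherwise. With the replicate number as a block, the members called were 0 in WTCKD against WTSHAM, 0 and 2 with RNLS in the wild type and the knockouts, and 3 over the 5 groups, as without it. Of the further pairs, WTCKD + RNLS and KOCKD against WTSHAM went from 1 to 0 (Sirt3) and KOCKD against WTCKD + RNLS from 0 to 1 (Nmrk2), and KOCKD against WTCKD called 1 gene of all in place of 0. Depth limits Nmrk1 and Nmrk2 most, at 21 to 115 counts per library.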

Other observations

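For the 3 members called in any planned comparison, the genes whose log2 CPM followed them most closely over the 15 hearts were looked up among all genes tested. Those of Nampt were Slc46a3, a lysosomal transporter (Pearson r = 0.93), Adh1, a cytosolic alcohol dehydrogenase that uses NAD+ (r = 0.93), and Lonrf1 (r = 0.93). Those of Nmrk2 were Prxl2b (r = 0.93), Arpc3, a subunit of the actin-nucleating ARP complex (r = 0.92), and Plpp1, a lipid phosphatase (r = 0.91). Those of Nnt were Gorasp1, a Golgi stacking protein (r = 0.88), Txlnb (r = 0.87) and Tollip (r = 0.87). The 15 hearts share their groups, so these values describe differences between groups as well as within them, and no test was made.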
